A study of Mus musculus with 4 samples.

Results

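The genes described are 10 that encode subunits or close partners of the Polycomb complexes, namely Ezh1, Ezh2, Eed, Suz12, Jarid2, Bmi1, Ring1, Rnf2, Cbx7 and Asxl1. They were taken by gene symbol from RNA-Seq values of sorted hematopoietic stem cells (HSCs), and all 10 symbols had a row among the 19354 genes listed. No measured value entered the choice. HSCs were sorted as LSK FLT3-CD48-CD150+ bone marrow cells from Mx1-Cre Id2+/+ and Mx1-Cre Id2fl/fl mice aged 8 to 16 weeks, 2 weeks after pIpC. Both genotypes carried Mx1-Cre and both received pIpC, which switches on the interferon-responsive Mx1 promoter and with it the Cre recombinase, so that Id2 is removed in the floxed mice (Id2Δ/Δ), in other interferon-responsive cells as well as in HSCs. Cells were pooled from 14 Id2+/+ and 15 Id2fl/fl mice over 2 experiments, and each genotype gave 2 libraries, called replicates 1 and 2 here. The labels do not tie a library to an experiment or to mice, so that p-values measure the spread between these libraries, which may be technical. Values are the deposited log2 CPM, that is read counts scaled to one total in every library, quantile-normalized between libraries.

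Polycomb proteins keep genes silent through histone marks. Polycomb repressive complex 2 (PRC2) methylates lysine 27 of histone H3 with either EZH2 or EZH1 as the catalytic subunit, and EED and SUZ12 are needed for that activity. JARID2 is an accessory subunit that helps to bring PRC2 to chromatin. PRC1 ubiquitinates histone H2A with RING1 or RNF2 (RING1B) as the ligase, BMI1 or another PCGF protein as its partner, and, in the canonical form, a CBX protein such as CBX7 that reads the methyl mark of PRC2. ASXL1 is the cofactor of BAP1, a deubiquitinase that removes the PRC1 mark. In blood, BMI1 is required for HSC self-renewal, chiefly through repression of the Cdkn2a locus, CBX7 favors self-renewal, EZH1 is used more by resting and EZH2 more by dividing cells, and EZH2 and ASXL1 are mutated in myeloid malignancy.

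The promoters of the members were read for the letters of the E-box, which E proteins bind, and of the E2F site. They were also read for ACGTG, 1 form of the core bound by HIF-1, while the form GCGTG was not searched. ID2 is known to bind E proteins in many cell types, and whether it does so in these HSCs was not tested here. RefSeq promoter windows of GRCm38.p6 were found for all 10 members, with 2 for Jarid2, and the 250 bases upstream of each RefSeq start were searched on both strands. These starts can differ from the ends of the gene spans given below, and the windows of Ezh2, Cbx7 and Jarid2 lie inside those spans. The E-box CANNTG was in 7 of 11 member windows, from 7 of 10 members, beside 66.2% of the 32851 windows of all genes. The letters ACGTG were in 3 of 11 member windows, from 3 members, beside 16.6% of all windows. The letters TTCCCGC or TTGGCGC, forms of the E2F site, were in 2 of 11 member windows, those of Asxl1 and Suz12, beside 5.62%. The windows of 5 members are shown as examples, and capitals mark every match to any of these letters. Jarid2, not shown, holds ACGTG in 1 of its 2 windows. Ezh1 holds CACCTG and CAGGTG, and Ezh2 holds no E-box and 1 match to ACGTG. In Bmi1 the E-box and ACGTG lie on the same bases, CACGTG. A match is a description of the sequence and not a site of binding.
Ezh1 (chr11:101226464-101226713, minus strand): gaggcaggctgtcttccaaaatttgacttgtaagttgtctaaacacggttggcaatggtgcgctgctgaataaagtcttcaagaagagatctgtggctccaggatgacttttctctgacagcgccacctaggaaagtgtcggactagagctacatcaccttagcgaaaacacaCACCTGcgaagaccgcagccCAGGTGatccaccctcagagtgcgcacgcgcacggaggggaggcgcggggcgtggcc
Ezh2 (chr6:47595031-47595280, minus strand): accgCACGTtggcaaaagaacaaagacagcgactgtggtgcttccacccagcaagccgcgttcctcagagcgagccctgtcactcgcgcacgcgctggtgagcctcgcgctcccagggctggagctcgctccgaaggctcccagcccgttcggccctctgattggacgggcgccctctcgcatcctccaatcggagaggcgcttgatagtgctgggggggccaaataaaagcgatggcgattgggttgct
Suz12 (chr11:79992856-79993105, plus strand): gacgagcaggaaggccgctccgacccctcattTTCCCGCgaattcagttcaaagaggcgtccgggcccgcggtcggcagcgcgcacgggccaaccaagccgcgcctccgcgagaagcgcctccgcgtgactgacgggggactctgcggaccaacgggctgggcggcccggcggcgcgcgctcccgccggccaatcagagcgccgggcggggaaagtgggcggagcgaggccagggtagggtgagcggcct
Bmi1 (chr2:18676768-18677017, plus strand): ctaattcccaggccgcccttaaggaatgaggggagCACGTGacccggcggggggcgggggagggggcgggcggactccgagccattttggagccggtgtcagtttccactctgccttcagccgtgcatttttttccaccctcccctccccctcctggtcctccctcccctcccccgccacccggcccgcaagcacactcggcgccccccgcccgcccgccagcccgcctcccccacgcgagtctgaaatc
Asxl1 (chr2:153345580-153345829, plus strand): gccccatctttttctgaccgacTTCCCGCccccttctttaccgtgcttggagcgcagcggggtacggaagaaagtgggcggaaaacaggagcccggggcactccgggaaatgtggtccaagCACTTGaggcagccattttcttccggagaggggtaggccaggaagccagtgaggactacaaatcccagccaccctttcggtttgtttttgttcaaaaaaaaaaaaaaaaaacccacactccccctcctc

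The deletion was visible in the reads of Id2 itself, with 93 and 98 in the Id2+/+ libraries and 0 in both Id2Δ/Δ libraries, where a count of 0 allows up to 3 reads. Depth, taken from the values below 32 CPM where whole reads can be recovered, was estimated at 14207350 to 18831991 reads per library. One library stood apart. Id2Δ/Δ replicate 1 held the highest or lowest value of the 4 libraries in 63.4% of the 15895 genes tested, against 42.0% to 49.3% for the other libraries. Among the 10 Polycomb genes it did so in 50.0%, and Id2+/+ replicate 1 in 70.0%. Markers of HSCs were present, with a row for all 7 genes of a list (Kit, Ly6a, Slamf1, Procr, Hlf, Mecom and Fgd5). Their summed level was 3368 and 3213 CPM in Id2+/+ and 2232 and 2572 CPM in Id2Δ/Δ libraries. Kit made up most of that gap, at 2159 and 1948 against 1170 and 1499 CPM. Hlf, Mecom and Fgd5 were also lower in both Id2Δ/Δ libraries, at log2 fold changes of -0.30, -0.22 and -0.57. Slamf1 was higher in both Id2Δ/Δ libraries, and Ly6a and Procr overlapped. Thus 4 of 7 lay apart on the lower side and 1 on the higher, beside 15.8% and 19.0% of all tested genes. All 8 neutrophil markers were also listed, at summed levels of 276 and 170 CPM in Id2+/+ and 258 and 140 CPM in Id2Δ/Δ HSCs, so that they moved with the replicate number rather than the genotype. Of the markers the gate should leave out, Flt3 and Cd48 were listed and Il7r was not, and they summed to between 48.3 and 57.7 CPM. Erythroid markers had a row for 7 of 8 and summed to between 43.9 and 69.9 CPM, and megakaryocyte markers, all 5 listed, summed to 343 and 329 CPM in Id2+/+ and 394 and 410 CPM in Id2Δ/Δ HSCs. Of 4 B-cell and 5 T-cell markers, 2 of each had a row, and Cd79a, Ms4a1, Cd3e, Cd3d and Cd3g did not. Those listed summed to between 36.6 and 54.0 CPM for B cells and between 22.7 and 26.2 CPM for T cells. Fewer cells of a type and less RNA per cell cannot be told apart in such bulk libraries.

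All 10 Polycomb genes were expressed well above the floor, at 5.33 to 7.24 log2 CPM, or about 630 to 2610 reads. Counting error alone is a standard deviation (SD) of 0.033 to 0.057 log2 at the lowest reads of each gene. Levels of different genes can be compared only per length, and per kilobase of the longest transcript Eed came first at 47.6 CPM per kb (45.2 to 50.7 over the 4 libraries). Ezh2 followed at 35.3 CPM per kb (28.5 to 41.9) and Rnf2 at 33.1 (32.1 to 34.0), and the ranges of this pair overlapped. Suz12, at 26.1 CPM per kb (25.2 to 27.9), lay apart from Rnf2 above it and from the next gene below. The other 6 genes lay close together, Bmi1, Asxl1, Cbx7, Ezh1 and Ring1 at means of 21.2, 19.4, 18.8, 18.3 and 18.2 CPM per kb and Jarid2 lowest at 15.2, and the range of each overlapped that of the next in the order.

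**Figure D1:**
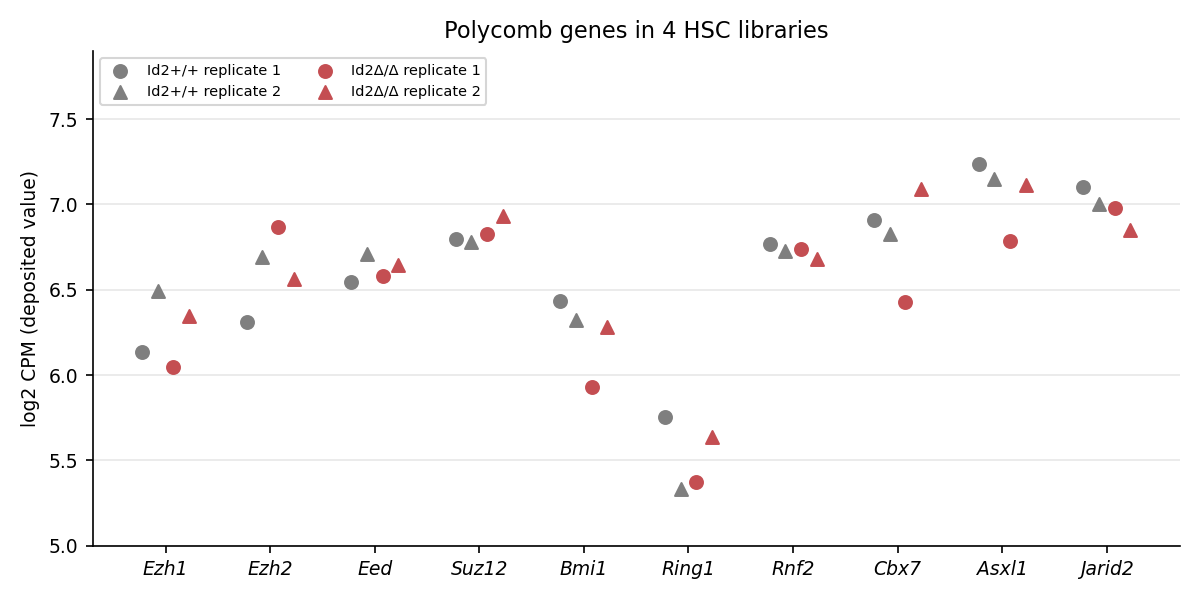
Deposited log2 CPM (vertical axis) of the 10 Polycomb genes (horizontal axis) in the 2 Id2+/+ (gray) and 2 Id2Δ/Δ (red) libraries, with circles for replicate 1 and triangles for replicate 2. The 4 Rnf2 values lie within 0.084 log2 of each other, while the Id2Δ/Δ replicate 1 circle lies well below the rest for Bmi1, Cbx7 and Asxl1.

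Eed and Suz12, in the core of PRC2, spanned 0.17 and 0.15 log2 over the 4 libraries. Eed (ENSMUSG00000030619.9, chr7:89954654-89980983 of GRCm38), the subunit that binds the methyl mark, was 6.55 and 6.71 log2 CPM in Id2+/+ and 6.58 and 6.64 in Id2Δ/Δ libraries. Suz12 (ENSMUSG00000017548.15, chr11:79993106-80034123), the scaffold subunit, was 6.80 and 6.78 in Id2+/+ and 6.82 and 6.93 in Id2Δ/Δ libraries. Both Suz12 values of Id2Δ/Δ HSCs lay above both of the controls, by as little as 0.026 log2 between the replicate 1 libraries, which is within counting error, whereas the libraries of Eed overlapped. The log2 fold change of Suz12 was 0.09 with a 95% interval of -0.20 to 0.38, and that of Eed was -0.02 with an interval of -0.33 to 0.30. Without Id2Δ/Δ replicate 2 the value of Suz12 was 0.034. An antisense transcript, E230029C05Rik, shares 6.82% of the exon bases of Eed, and reads of the 2 cannot be told apart if strand was not used in counting.

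The catalytic subunits varied more. Ezh2 (ENSMUSG00000029687.16, chr6:47530139-47595341) was 6.31 and 6.69 log2 CPM in Id2+/+ and 6.87 and 6.56 in Id2Δ/Δ libraries. The highest value was thus in Id2Δ/Δ replicate 1 and the lowest in Id2+/+ replicate 1, and the other libraries lay between with the control above. Ezh2 thus had a log2 fold change of 0.21 with a standard error of 0.18 and an interval of -0.21 to 0.63 (limma, adjusted p = 0.910), and it was 0.020 without Id2+/+ replicate 1 and 0.058 without Id2Δ/Δ replicate 1. An adjusted p of 0.910 was the smallest of all tested genes in limma, and genes with unlike unadjusted p-values share it, here and below. Proliferation markers, a fixed list of 10 that includes Mki67, Top2a and Cdk1, summed to 938 and 1080 CPM in Id2+/+ and 1280 and 1237 CPM in Id2Δ/Δ HSCs, so that Id2+/+ replicate 1 was lowest and Id2Δ/Δ replicate 1 highest for these as well. Their part in the Ezh2 values was not tested. Ezh1 (ENSMUSG00000006920.14, chr11:101191115-101226463) was 6.13 and 6.49 in Id2+/+ and 6.05 and 6.34 in Id2Δ/Δ libraries. In both genotypes Ezh1 was higher in replicate 2, by 0.36 and 0.29 log2, which is more than the genotype difference of -0.12 (interval -0.53 to 0.30). Jarid2 (ENSMUSG00000038518.15, chr13:44729474-44921643) was 7.1043 and 6.9997 in Id2+/+ and 6.9784 and 6.8486 in Id2Δ/Δ libraries. Its Id2Δ/Δ values lay below both controls by as little as 0.021 log2, and its log2 fold change of -0.14 (interval -0.43 to 0.16) was the only 1 of the 10 to exceed the gap between replicates in both genotypes, which 22.1% of all tested genes did. It was -0.074 without Id2Δ/Δ replicate 2 and -0.086 without Id2+/+ replicate 1. Jarid2 has the longest transcript of the 10 at 8353 bases. Once the libraries were corrected for the length of the transcripts, its log2 fold change was -0.0099 and its libraries overlapped.

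Among PRC1 genes, Rnf2 was the steadiest and Cbx7 the most variable of all 10. Rnf2 (ENSMUSG00000026484.13, chr1:151458004-151500955) was 6.77 and 6.73 log2 CPM in Id2+/+ and 6.74 and 6.68 in Id2Δ/Δ libraries. The 4 values spanned 0.084 log2, and the fold change of -0.03 had an interval of -0.32 to 0.25. Its homolog Ring1 (ENSMUSG00000024325.8, chr17:34020792-34024680) was the lowest of the 10 in log2 CPM, at 5.76 and 5.33 in Id2+/+ and 5.37 and 5.64 in Id2Δ/Δ libraries. The replicates differed by 0.42 log2 in Id2+/+ and by 0.26 in Id2Δ/Δ HSCs, in opposite directions, while the genotype means differed by -0.04 (interval -0.51 to 0.43).

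Bmi1 (ENSMUSG00000026739.13, chr2:18677018-18686629), which encodes the PCGF subunit best known in HSCs, was 6.43 and 6.32 in Id2+/+ and 5.93 and 6.28 in Id2Δ/Δ libraries. Both Id2Δ/Δ values lay below both controls, but Id2Δ/Δ replicate 2 did so by only 0.041 log2 and replicate 1 by much more. Bmi1 had a log2 fold change of -0.27 with a standard error of 0.16 and an interval of -0.65 to 0.11 (limma, adjusted p = 0.910), and it was -0.095 without Id2Δ/Δ replicate 1. Cbx7 (ENSMUSG00000053411.16, chr15:79915807-79971119) was 6.91 and 6.83 in Id2+/+ and 6.42 and 7.09 in Id2Δ/Δ libraries. The Id2Δ/Δ libraries lay on either side of the controls and differed from each other by 0.66 log2, the widest gap of any member, so that the log2 fold change of -0.11 (interval -0.61 to 0.38) turned to 0.22 without Id2Δ/Δ replicate 1.

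Asxl1 (ENSMUSG00000042548.13, chr2:153345829-153404007), the BAP1 cofactor, was the highest of the 10 in log2 CPM, at 7.24 and 7.15 in Id2+/+ and 6.79 and 7.11 in Id2Δ/Δ libraries. As for Bmi1, both Id2Δ/Δ values lay below the controls, replicate 2 by only 0.036 log2. Asxl1 had a log2 fold change of -0.24 with a standard error of 0.15 and an interval of -0.58 to 0.10 (limma, adjusted p = 0.910), and it was -0.079 without Id2Δ/Δ replicate 1. After correction for transcript length it was -0.14 and the libraries overlapped, whereas Bmi1 was at -0.25 and its libraries did not overlap. Asxl1 and Bmi1 had the smallest unadjusted p-values of the 10 in limma, both 0.138 when rounded. For Asxl1, the smaller before rounding, the genes with the most similar values over the 4 libraries, each centered on its own mean, were Atg2a, Neil1, Tnpo2, Gpc1 and Cox18, at root mean square differences of 0.0039 to 0.012 log2. With 4 libraries such likeness is common, and 155 of 15894 genes lay within 0.05 log2.

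Taken over the 10 genes, none had an adjusted p-value under 0.05 in limma, beside 0% of all 15895 tested genes, and none had an unadjusted p-value under 0.05, beside 4.67% (1.72% higher and 2.95% lower in Id2Δ/Δ HSCs). Id2, the deleted gene, was among the tested genes and was not called either. The lack of a call for a member is thus no sign that it was unchanged. The log2 fold change was below 0 for 8 of 10 members, beside 48.3% of all genes, with a median of -0.08 for the members and 0.01 for all genes. The libraries did not overlap in 4 members, beside 34.8% of all genes. These were Bmi1, Asxl1 and Jarid2 on the lower side, beside 15.8%, and Suz12 on the higher side, beside 19.0%. The smallest gaps between the genotypes were 0.041, 0.036, 0.021 and 0.026 log2 in that order. They lay near or under the counting SDs of 0.044, 0.033, 0.033 and 0.036 log2. With the length correction only Bmi1 stayed apart on the lower side, beside 13.5% of all genes, and Suz12 on the higher side, beside 20.6%. Relative to each gene's mean, the median over the members was 0.07 and 0.05 in Id2+/+ libraries, -0.10 in Id2Δ/Δ replicate 1 and 0.04 in Id2Δ/Δ replicate 2, so that the shift of the list lay in 1 library, and without it the median log2 fold change was 0.024.

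**Figure D2:**
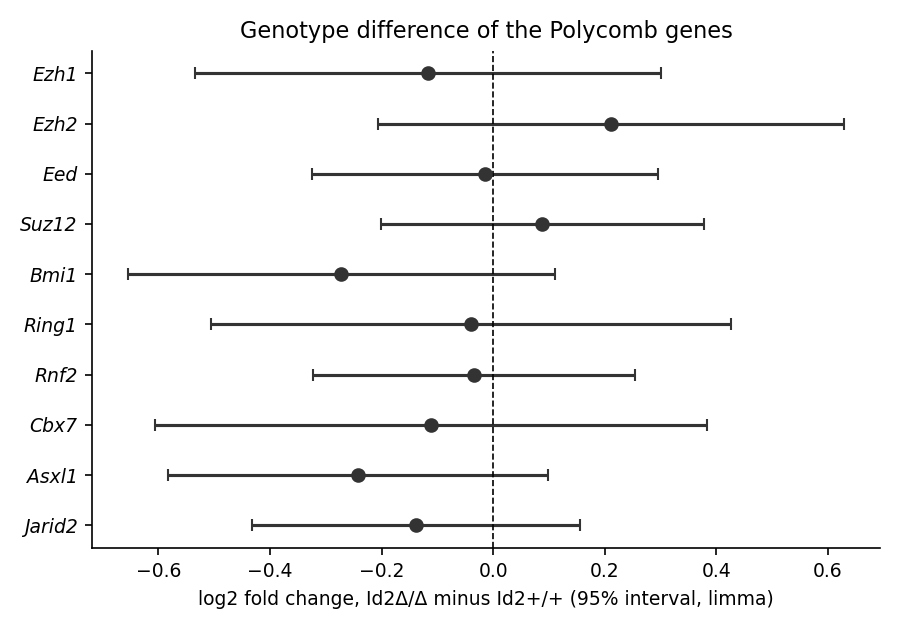
Log2 fold change of Id2Δ/Δ against Id2+/+ HSCs (horizontal axis) for the 10 Polycomb genes, with points for the limma estimate from 2 libraries per genotype and bars for its 95% interval. Every interval includes 0, from -0.65 to 0.11 for Bmi1 at the lower end to -0.21 to 0.63 for Ezh2 at the upper end.

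Because several subunits exclude each other from a complex, the balance between alternatives was read within each library, as a log2 difference of their levels, and 3 such balances were compared. With 2 libraries on each side, the smallest p an exact two-sided permutation test allows is 0.333. Per kilobase, Ezh2 was 1.71 and 1.74 times Ezh1 in Id2+/+ HSCs and 2.66 and 1.75 times in Id2Δ/Δ HSCs. The Id2+/+ libraries and Id2Δ/Δ replicate 2 thus gave nearly the same ratio, and Id2Δ/Δ replicate 1 alone was higher. The mean balance was 0.33 log2 higher in Id2Δ/Δ HSCs (0.19 ± 0.018 in Id2+/+ and 0.52 ± 0.43 in Id2Δ/Δ before length scaling, SD, n = 2 each, exact permutation p = 0.333, adjusted over 3 p = 1.0), and 0.027 without Id2Δ/Δ replicate 1.

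Rnf2 per kilobase was 1.61 and 2.09 times Ring1 in Id2+/+ and 2.06 and 1.65 times in Id2Δ/Δ HSCs, with overlapping libraries and mean balances that differed by 0.0054 log2. Bmi1 greatly exceeded its homolog Pcgf2, at 9.66 and 6.60 times per kilobase in Id2+/+ and 4.52 and 7.22 times in Id2Δ/Δ HSCs. Those libraries overlapped too, and the balance differed by -0.48 log2 (3.53 ± 0.39 in Id2+/+ and 3.05 ± 0.48 in Id2Δ/Δ, SD, n = 2 each, exact permutation p = 0.667) and by -0.15 without Id2Δ/Δ replicate 1.

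**Figure D3:**
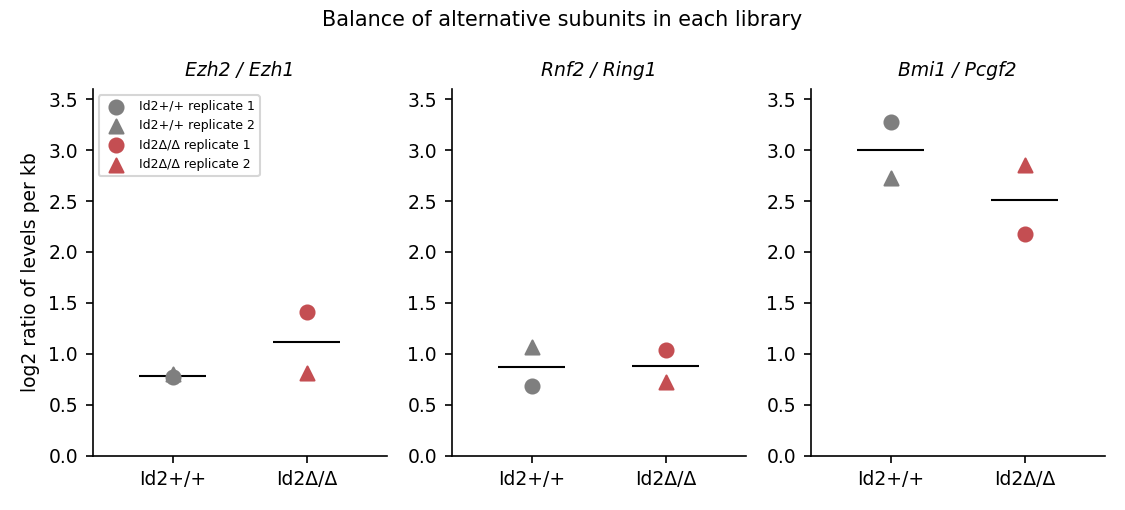
Log2 ratio of the levels per kilobase of alternative subunits (vertical axis, 1 panel per balance) in Id2+/+ (gray) and Id2Δ/Δ (red) libraries, with circles for replicate 1, triangles for replicate 2 and bars for the mean of 2. In the Ezh2 panel 3 libraries lie together and Id2Δ/Δ replicate 1 lies apart, at a ratio of 2.66, and in the other panels the genotypes overlap.

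The rest of the Polycomb machinery was read from 6 fixed lists that hold 50 further genes, of which 42 were tested. None was called by adjusted p-value, and 2, Mga and Lin28b, had an unadjusted p-value under 0.05, a share of 4.76% beside 4.67% of all tested genes. The libraries did not overlap in 12 genes on the lower side, or 28.6% beside 15.8% of all genes, and in 5 on the higher side, or 11.9% beside 19.0%. With the length correction these were 8 genes on the lower side, or 19.0% beside 13.5%, and 9 on the higher side, or 21.4% beside 20.6%. The share on the lower side thus fell with this correction but stayed above that of all genes, a difference that was not tested.

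Of 6 other PRC2 genes tested, only Phf19, an accessory subunit that binds methylated histone H3, had libraries apart. That is 1 on the higher and 0 on the lower side, beside 19.0% and 15.8% of all genes. With the length correction these were 3 and 0, beside 20.6% and 13.5%. Phf19 had 209 and 197 reads in Id2+/+ and 384 and 313 in Id2Δ/Δ libraries, a log2 fold change of 0.48 (interval -0.09 to 1.05). Its log2 fold change was the largest of the PRC2 genes tested, and it ran from 0.30 to 0.66 as each library was left out.

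Of 9 other canonical PRC1 genes, 4 had both Id2Δ/Δ values below the controls and none had both above, beside 15.8% and 19.0% of all genes. With the length correction these were 3 and 1, beside 13.5% and 20.6%. Scmh1, a relative of the fly gene Sex comb on midleg, was 6.19 and 6.26 log2 CPM in Id2+/+ and 5.96 and 5.91 in Id2Δ/Δ libraries, a log2 fold change of -0.29 (interval -0.62 to 0.03). It stayed between -0.33 and -0.26 as each library was left out. Scml2, another of the same family, had 177 and 175 reads in Id2+/+ but 21 and 182 reads in Id2Δ/Δ libraries, so that its log2 fold change of -1.75 was -0.22 without Id2Δ/Δ replicate 1. Phc2, a homolog of the fly gene polyhomeotic, was at -0.14 (interval -0.48 to 0.19), and at -0.051 without Id2+/+ replicate 1.

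Of 12 tested genes of variant PRC1, which carries other PCGF proteins and does not need the PRC2 mark, 4 lay apart on the lower and 1 on the higher side, beside 15.8% and 19.0% of all genes, and 2 on each side with the length correction, beside 13.5% and 20.6%. Mga, a large DNA-binding subunit of the PCGF6 complex, was 7.98 and 8.06 log2 CPM in Id2+/+ and 7.73 and 7.66 in Id2Δ/Δ libraries. The log2 fold change was -0.33 (interval -0.58 to -0.07, adjusted p = 0.910 from limma), steady between -0.36 and -0.29 as each library was left out but -0.13 with the length correction. Kdm2b, which brings PRC1 to CpG islands, was 6.32 in both Id2+/+ and 6.02 and 6.08 in Id2Δ/Δ libraries, a log2 fold change of -0.27 (interval -0.58 to 0.05), and -0.20 with the length correction. Its partner Pcgf1 went the other way, with 151 and 173 reads in Id2+/+ and 300 and 246 reads in Id2Δ/Δ libraries, a log2 fold change of 0.49 (interval -0.10 to 1.09), and 0.32 without Id2Δ/Δ replicate 1. Bcorl1, a corepressor, was at -0.34 (interval -0.95 to 0.26), and at -0.16 without Id2Δ/Δ replicate 2 and -0.53 without Id2Δ/Δ replicate 1.

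Around Asxl1, among 7 tested genes of the BAP1 complex and of H2A deubiquitination, Mbd6 and Foxk1 had both Id2Δ/Δ values above the controls, at 0.23 and 0.16 log2, and Mbd5 and Foxk2 both below, at -0.53 and -0.22, with intervals that include 0 for all 4. These are 2 of 7 on the lower and 2 on the higher side, beside 15.8% and 19.0% of all genes. With the length correction they were 1 and 2, beside 13.5% and 20.6%. Mbd6 ran from 0.21 to 0.24 as each library was left out. Foxk1 was at 0.070 without Id2+/+ replicate 2 and at 0.25 without Id2+/+ replicate 1, Foxk2 at -0.12 without Id2+/+ replicate 1, and Mbd5 at -0.27 without Id2Δ/Δ replicate 1 and -0.35 without Id2+/+ replicate 2. Of 3 genes of the family of demethylases of the PRC2 mark, the Y-linked Uty alone had libraries apart, on the lower side, beside 15.8% of all genes. Its log2 fold change was -0.36 (interval -0.84 to 0.12). It was at -0.12 without Id2Δ/Δ replicate 2 and -0.60 without Id2Δ/Δ replicate 1. The share of male cells in each library was not read, and demethylase activity was not measured.

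**Figure D4:**
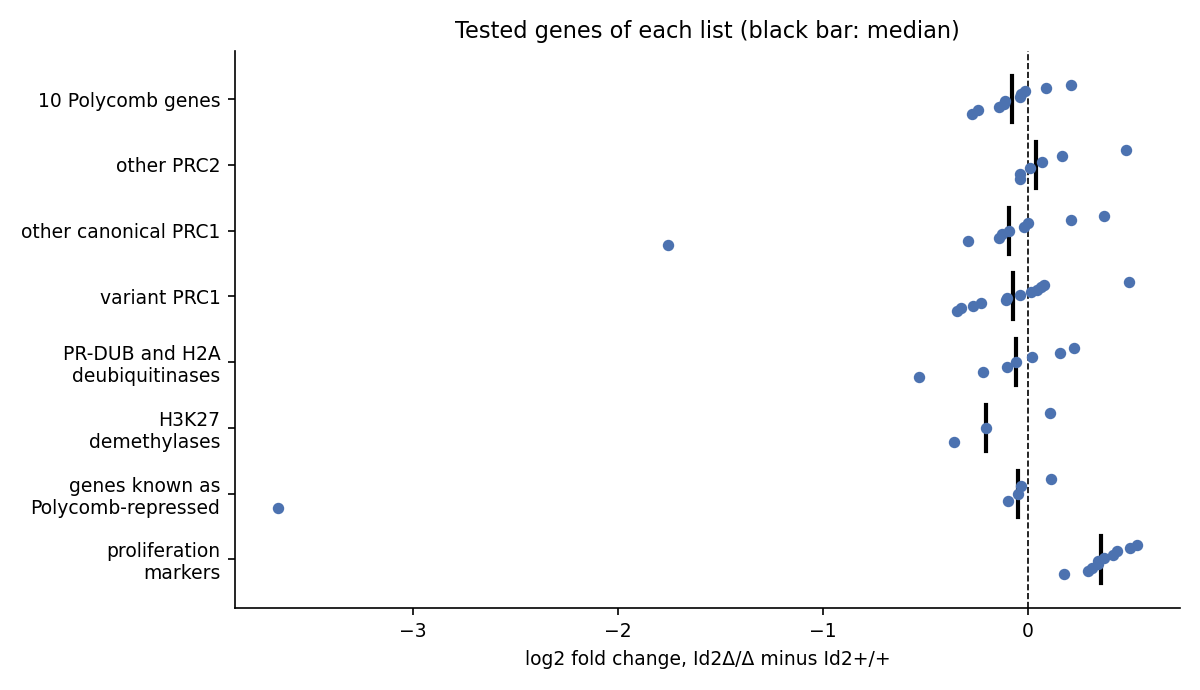
Log2 fold change of Id2Δ/Δ against Id2+/+ HSCs (horizontal axis) for each tested gene (point) of the Polycomb lists and of the proliferation markers, with a black bar at each list's median. The medians of the Polycomb lists lie between -0.21 and 0.04, that of the proliferation markers lies at 0.36, and the far left point is Lin28b, whose fitted value is no bound because 1 library had 0 reads.

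Genes known as targets of Polycomb repression were read last, from a fixed list of 9, and not all of them were silent here. No row was found for Cdkn2a and Cdkn2b, the cell-cycle inhibitors that BMI1 represses, or for the B-cell factors Ebf1 and Pax5, so these were not analysed here. Hoxa9, Hoxa10 and Hmga2, named with their values known, had log2 fold changes of -0.05, -0.10 and -0.03 with overlapping libraries. Hoxa9 was expressed at 6.90 and 7.13 log2 CPM in Id2+/+ and 6.71 and 7.23 in Id2Δ/Δ libraries. Hoxa10 was at 4.65 and 4.87 in Id2+/+ and 4.53 and 4.79 in Id2Δ/Δ libraries. Hmga2 was at 4.42 and 3.83 in Id2+/+ and 3.95 and 4.23 in Id2Δ/Δ libraries. Igf2bp3 had 102 reads in both Id2+/+ libraries and 129 and 130 in the Id2Δ/Δ libraries, which at the depths of these libraries is a log2 fold change of 0.11 (interval -0.59 to 0.82), with both Id2Δ/Δ values just above the controls, and 0.049 without Id2+/+ replicate 2. Lin28b, a fetal HSC gene, had 26 and 81 reads in Id2+/+ and 0 and 18 reads in Id2Δ/Δ libraries. Both Id2Δ/Δ values of Lin28b were below both controls, its unadjusted p-value was 0.037 and its adjusted p-value was 0.910 from limma. Thus 1 of 5 tested genes lay apart on the lower and 1 on the higher side, beside 15.8% and 19.0% of all genes. With the length correction the counts were the same, beside 13.5% and 20.6%. The proliferation markers, by contrast, had both Id2Δ/Δ values above both controls in 9 of 10 genes, beside 19.0% of all genes, with a median of 0.36 and 0 of 10 called by adjusted p-value.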

How the data were processed

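RNA-Seq values of 4 HSC libraries were used. The authors deposited log2 CPM values, quantile-normalized between libraries. The unit was read from the values, since the columns taken back from log2 sum to between 999980 and 999996. The submitters' processing notes name CASAVA 1.8.4, Trimmomatic 0.30, TopHat2 2.0.8, RSEM and STAR and the builds mm9 and NCBIM37, with no role given, whereas the versioned gene identifiers match GENCODE M21, so coordinates and transcript lengths are those of GENCODE M21 on GRCm38. How genes were filtered and whether strand was used is not given in the sources used here.

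Values were used as deposited, without a pseudocount. Within a library the rank of a distinct value gives its whole reads below 32 CPM, and depth was estimated as the median ratio of reads, with 0.5 added, to CPM over distinct log2 values from 1 to 5. Reads above this are approximate, and no count model was run. The 15895 genes whose mean reached 1 CPM were fitted on genotype alone in limma 3.58.1 under R 4.3.3, with lmFit, then eBayes with its trend option. The test was two-sided, with Benjamini-Hochberg adjustment over all of these genes. Intervals are 95% and are not adjusted. The test was tried on simulated data. Balances were compared by exact permutation in scipy 1.17.1. Libraries were corrected for length with a natural spline of 5 degrees of freedom fitted to the deviation of its values from the mean of each gene. The members, the lists and the tests were chosen with earlier results of these data known. Beyond the 10 members, in each list up to 3 genes per direction with the smallest unadjusted p among those whose libraries do not overlap were named, with the genes used in a balance. Some planned list genes and 1 planned balance are not reported here. Alternatives varied the pseudocount, scaling, filter, trend, threshold, length correction, replicate block and libraries, and the counts of libraries apart under other scalings were added after seeing the data. Intervals and the limit of a count of 0 cover counting error or library spread only. Exon bases shared with transcripts on the other strand make up 1.54% to 6.82% of Asxl1, Cbx7, Eed, Ezh2, Rnf2 and Suz12.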

Additional observations from a re-analysis of the deposited data

How the results depend on the processing

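No member was called under any of the alternatives run, and the smallest adjusted p-value of the 29 member and list genes recomputed in them was 0.266. All 315 values of these 29 genes under settings other than leaving out a library kept their sign. Under the replicate block, the other filters and the fit without a trend the fold change cannot move, so their signs were fixed in advance. Adding the block to the length correction cannot move it further, and further quantile normalization repeats a step the deposited values had already been through. With a library left out, 102 of 116 values kept their sign. Over all genes, 742 passed at an unadjusted p-value under 0.05. With each library left out in turn, the median log2 fold change of the members ran from -0.12 to 0.024. In the same fits, where a lone library is assumed to vary like the rest, Ezh1 ran from -0.29 to 0.062, Eed from -0.098 to 0.068, Ring1 from -0.25 to 0.17, Cbx7 from -0.44 to 0.22, Pcgf2 from -0.0093 to 0.43, Hoxa9 from -0.31 to 0.22, Hoxa10 from -0.23 to 0.029 and Hmga2 from -0.33 to 0.26. The balance of Rnf2 and Ring1 ran from -0.19 to 0.20. With the length correction 1 member in place of 3 had libraries apart on the lower side, and with median-ratio rescaling 4 did.

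The libraries share replicate numbers, which the labels do not tie to an experiment, and across tested genes the correlation between libraries of the same number, as deviations from their genotype means, was 0.059, and 0.139 across genes above 32 CPM, as all members are. With the number as a replicate block, 1 gene was called over all genes, and 1 with the block and the length correction, and no member was called in either. The log2 fold changes and balances do not change under the block, since each genotype has both numbers. With 2 libraries per genotype the unadjusted intervals of the members reach 0.29 to 0.49 log2 on either side. The adjusted threshold asks for more, since neither Kit, at -0.63 log2, nor the deleted gene Id2 was called.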
